A study of Mus musculus with 6 samples.

Results

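The nuclear genes of respiratory complex III, cytochrome c, complex IV and the ATP synthase were examined in mouse quadriceps muscle. Members were taken by symbol, as every row of the deposited expression table that begins with Uqcr, Cox and a digit, or Atp5, together with Cyc1, Cycs, Ndufa4, Surf1, Sco1, Sco2 and Bcs1l where listed. This gave 53 of 11768 rows, which were 51 genes and 2 pseudogenes (Uqcrh-ps1 and Atp5c1-ps). Complex III had 10 rows, namely 8 subunits, the assembly factor Bcs1l and 1 pseudogene. Cytochrome c had 1 row. Complex IV had 25 rows, which were 13 subunits, 11 assembly factors and Cox7a2l. The ATP synthase had 17 rows, which were 15 subunits, the coupling factor gene Atp5s and 1 pseudogene. Uqcr11, Cox4i2, Cox6b2, Cox7a2, Cox7b2, Cox8c, Sco2 and the subunits encoded in mitochondrial DNA were not analysed here.

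In the mice labelled mDrp1HET, 1 copy of the gene for Drp1 (Dnm1l), the GTPase that divides mitochondria, was knocked out in muscle, per the design text. The other group is labelled Control f/f and carries the floxed gene. All mice were on normal chow. The labels used here give no age and no statement that each sample is a separate animal. The spread behind every p-value may therefore be technical. The sample titles contain the letters mck, but the labels used here do not spell out a Cre driver. Total RNA sequencing gave 3 columns per group, but mDrp1HET replicate 3 and Control replicate 1 hold 1 library: the Control column had exactly 2 times the reads in 43 of the 53 members, and in 96.3% of all genes, and the members differed by at most 0.02 log2 CPM between these columns. They were counted as 1 sample. Every comparison is therefore given as labelled, with 3 columns against 3, and without both of those columns, with mDrp1HET replicates 1 and 2 against Control replicates 2 and 3 (the 4-library comparison). The values of the column pair are given as those of the shared library. Recovered reads ranged from 10394761 to 64728022 per column. The targeted gene Dnm1l was not detectably lower, at 7.30 and 6.73 log2 CPM in mDrp1HET replicates 1 and 2 against 6.95 and 6.87 in Control replicates 2 and 3, and 6.69 in the shared library. Directions below therefore refer to the labels.

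Complex III takes electrons from ubiquinol and passes them to cytochrome c, a small soluble carrier. Complex IV, the cytochrome c oxidase, hands them to oxygen, and the ATP synthase uses the proton gradient that the chain builds to make ATP. Skeletal muscle uses its own forms of some complex IV subunits, encoded by Cox6a2, Cox7a1 and Cox8b in the mouse. The catalytic core of complex IV is encoded in mitochondrial DNA, and the nuclear subunits listed here surround it.

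Several of these genes have processed copies elsewhere in the genome, and this bears on how their reads can be assigned. The shares below count the stretches of 50 bases in a gene's transcripts that also occur, on the same strand, in a transcript of another locus (GENCODE M21, GRCm38). Of the 52 members with a value, 13 (25%) shared at least 10% of their stretches, against 7.37% of all genes. The share was 87.4% in Atp5g2, 68.5% in Atp5l, 43.2% in Uqcrb, 38.8% in Atp5h, 28.2% in Cycs and 23.0% in Cox7c, and it was 0 in 25 members. The 3 copies shown are each listed in the expression table under their own names and stand beside the opening 90 coding bases of their parent genes; they are printed because the levels of parent and copy are set against each other below. Capitals mark bases that differ within a pair. Cox7c lies on chromosome 13 (86044798 to 86046795) and Gm10012 on chromosome 17 (25901856 to 25902227), and they differ at 1 of these bases.
Cox7c: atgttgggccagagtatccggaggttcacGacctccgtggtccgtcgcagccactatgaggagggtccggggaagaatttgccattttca
Gm10012: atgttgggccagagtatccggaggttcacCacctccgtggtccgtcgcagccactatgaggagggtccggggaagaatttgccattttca
Uqcrb lies on chromosome 13 (66900576 to 66905350) and Gm16089 on chromosome 5 (137615627 to 137615962), with 4 differing bases.
Uqcrb: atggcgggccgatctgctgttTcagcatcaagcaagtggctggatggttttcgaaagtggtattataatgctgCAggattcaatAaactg
Gm16089: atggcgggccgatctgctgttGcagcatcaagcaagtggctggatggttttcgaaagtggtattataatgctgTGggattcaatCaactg
Atp5j2 lies on chromosome 5 (145183704 to 145191541) and Gm6581 on chromosome 9 (22092513 to 22092772), with 8 differing bases.
Atp5j2: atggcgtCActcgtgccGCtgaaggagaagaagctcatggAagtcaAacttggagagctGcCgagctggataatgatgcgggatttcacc
Gm6581: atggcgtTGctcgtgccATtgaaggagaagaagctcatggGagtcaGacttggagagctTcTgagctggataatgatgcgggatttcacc

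The members together took 1.14% and 0.779% of all reads in mDrp1HET replicates 1 and 2, 1.09% and 0.696% in Control replicates 2 and 3, and 0.826% in the shared library, so the groups overlapped. Per kilobase of transcript, the mean over the 5 separate libraries was highest for the muscle subunit genes Cox7a1 (9.65 log2 CPM per kilobase) and Cox6a2 (9.63), followed by the catalytic β subunit gene Atp5b (9.49), Uqcrb (9.38) and the α subunit gene Atp5a1 (9.13). Subunits of complex III ran from 6.21 to 9.38 on this scale, those of complex IV from 4.24 to 9.65 and those of the ATP synthase from 3.65 to 9.49. The lowest member was Cox18, whose product inserts a core subunit of complex IV into the inner membrane, at 1.23. Without the length correction, Atp5a1 (chromosome 18, 77773768 to 77782869) had the highest mean level at 10.50 log2 CPM. It stood at 10.71 and 9.995 log2 CPM in mDrp1HET replicates 1 and 2, 10.91 and 10.29 in Control replicates 2 and 3 and 10.57 in the shared library, with overlapping groups.

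**Figure D1:**
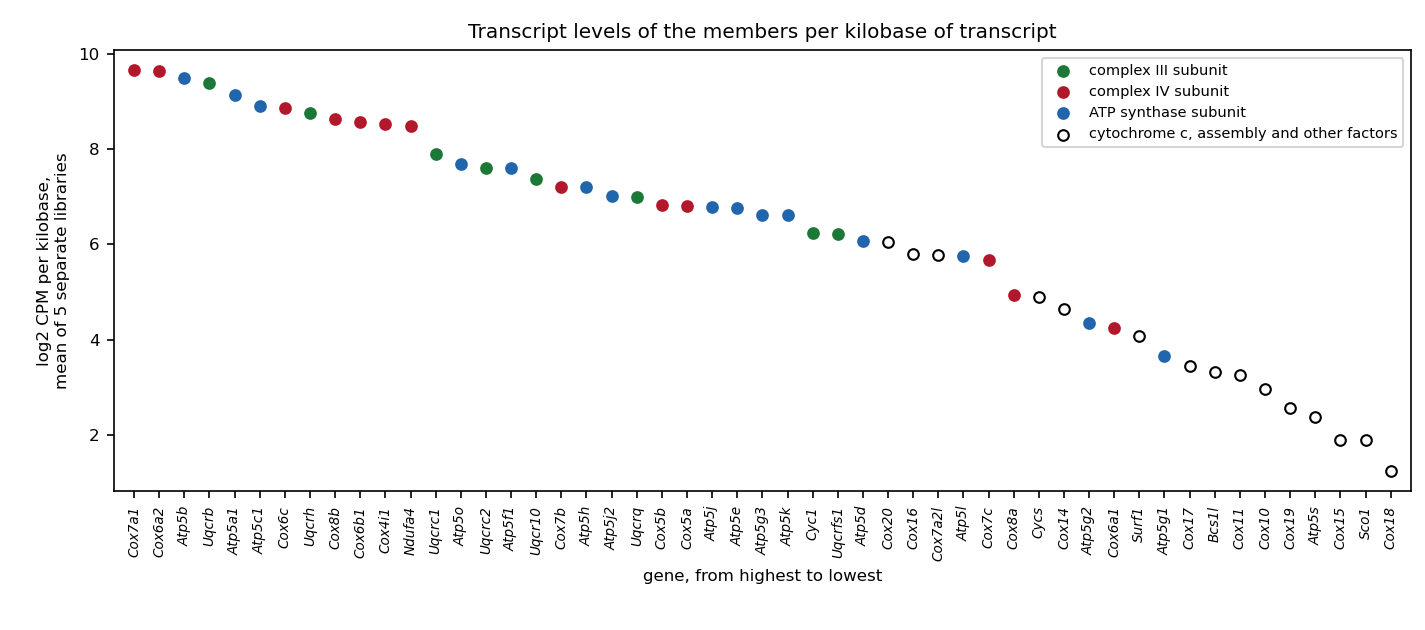
Mean level of each of the 51 members other than pseudogenes, in log2 CPM per kilobase of transcript over the 5 separate libraries, in falling order. Subunit genes fill the upper ranks from Cox7a1 (9.65) down, and assembly factors most of the lower ones, ending at Cox18 (1.23).

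None of the 53 members changed by the test in either comparison. In the labelled comparison, 0 of 53 had a limma adjusted p under 0.05, against 0% of all genes, and 0 of 53 had an unadjusted p under 0.05, against 3.9% of all genes. The lowest adjusted p of a member was 0.753. In the 4-library comparison, 0 of 53 members had an adjusted p under 0.05, against 0.187% of all genes (22 genes), and limma voom on recovered reads also gave 0. At an unadjusted p under 0.05 there were 6 members higher in mDrp1HET (11.3%, against 13.3% of all genes) and 0 lower (against 3.26%). The 6 were Ndufa4, Cox7b, Cox6c, Cox8b, Atp5j2 and Atp5e. Both mDrp1HET libraries lay above both Control libraries for 11 members (20.8%), against 38.6% of all genes, and below both for 1 member, Cox5a (1.89%), against 11.3%. The share of members with separated groups was thus below that of the table in both directions.

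As complexes, the members had medians close to that of the whole table. For complexes III and IV, the side of it changed with the libraries and the normalization used. In the 4-library comparison, the ATP synthase median lay below that of all genes in every setting that kept the 4 libraries. It stood at -0.25 relative to all genes with the length trend removed. Of the fits with a library left out, only that without Control replicate 2 put it above. The median log2 fold change of mDrp1HET over Control in the 4-library comparison was 0.15 for the 9 genes of complex III, 0.15 for the 25 of complex IV and 0.04 for the 16 of the ATP synthase, against 0.20 for all genes. In the labelled comparison these medians were 0.10, 0.10 and 0.03, against 0.13 for all genes. The sign depended on the scaling: with median centring of each library the 3 complexes were at -0.02, -0.02 and -0.12, with all genes at 0.04. Relative to the median of all genes, they stood at -0.06, -0.05 and -0.16 with either scaling. That sameness was fixed in advance, since centring moves every fold change by the same amount. Relative to all genes, they stood at 0.09, 0.05 and -0.04 with quantile normalization, and 0.003, 0.08 and -0.09 with the GC trend removed. Leaving out a library also turned the sign of the medians. They were -0.14, -0.13 and -0.27 without Control replicate 3, against 0.09 for all genes. Without mDrp1HET replicate 1 they were -0.09, -0.01 and -0.28, against 0.09. Without Control replicate 2 they were 0.47, 0.49 and 0.35 against 0.30 for all genes, and without mDrp1HET replicate 2 they were 0.35, 0.49 and 0.32 against 0.34.

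**Figure D2:**
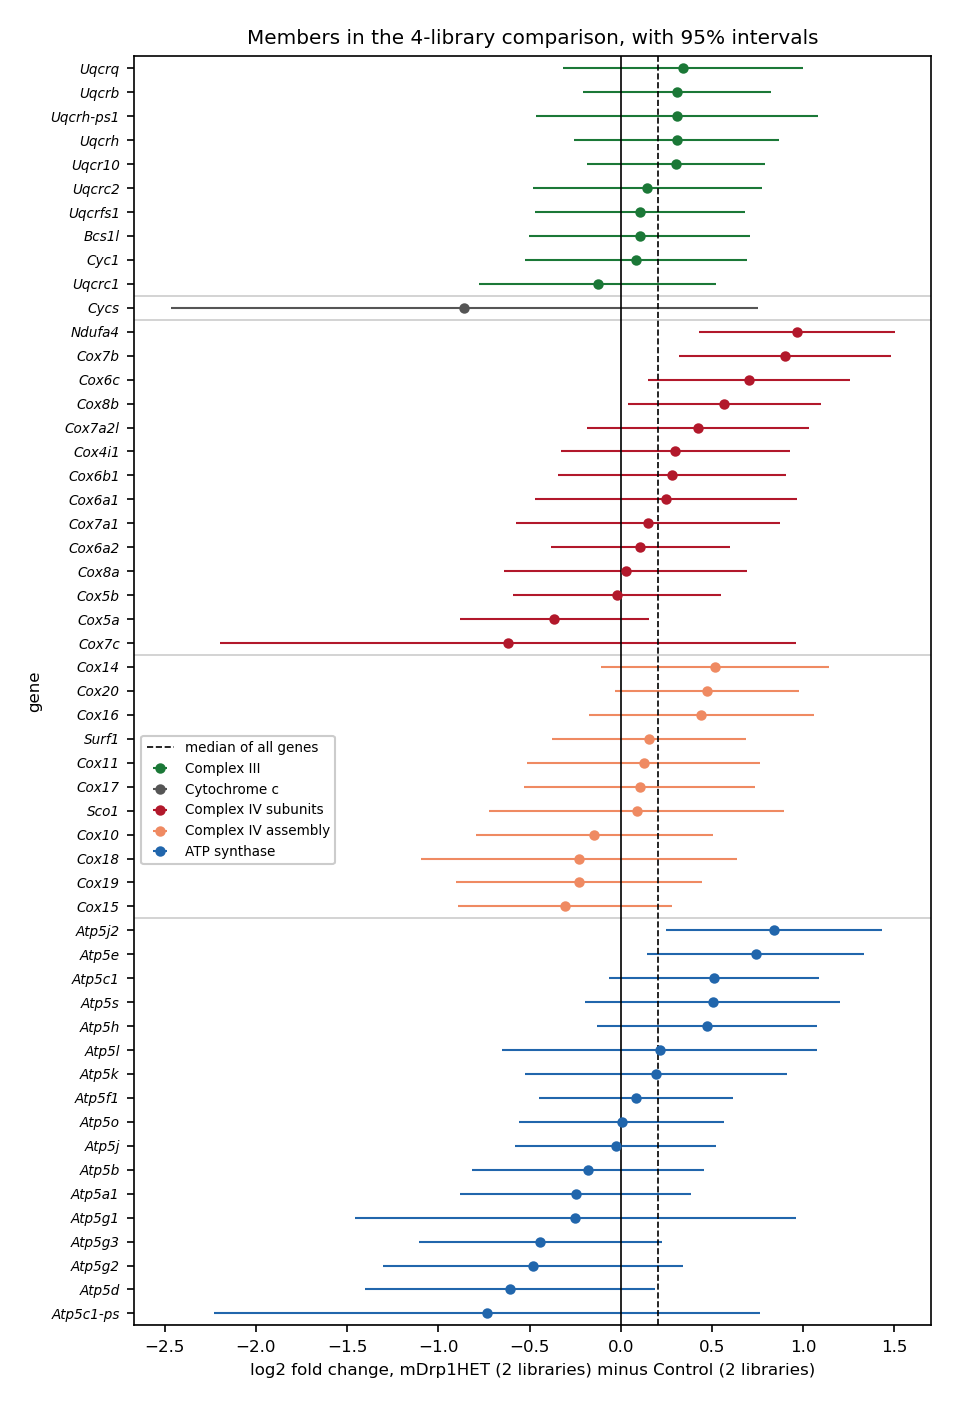
Log2 fold change of each member in the 4-library comparison (mDrp1HET replicates 1 and 2 over Control replicates 2 and 3), with 95% intervals from limma, ordered within each complex. The intervals of Ndufa4, Cox7b, Cox6c, Cox8b, Atp5j2 and Atp5e lie above 0, no interval lies below it, and the dashed line at 0.20 is the median of all genes.

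The libraries of a group differed from each other across the members. Of the 4 libraries, mDrp1HET replicate 1 was the highest for 32 of 53 members (60.4%, against 55% of all genes) and Control replicate 2 for 20 (37.7%, against 20.7%), while mDrp1HET replicate 2 was so for 1 (1.89%, against 17.3%) and Control replicate 3 for 0 (against 6.93%). Control replicate 3 was the lowest for 37 members (69.8%, against 49.4%) and mDrp1HET replicate 2 for 16 (30.2%, against 24.3%). Members thus tended to run high in 1 library of each group and low in the other. The median over all members was 6.38 and 5.88 log2 CPM in mDrp1HET replicates 1 and 2, 6.47 and 5.80 in Control replicates 2 and 3, and 5.92 in the shared library. The median of all genes moved less, at 4.06 and 3.85 in mDrp1HET, 3.90 and 3.67 in Control and 3.73 in the shared library. mDrp1HET replicate 1 also had the highest level of the 4 measured slow-fibre genes other than Myh2 (Myh7, Tnnt1, Tpm3 and Atp2a2). All 4 stood higher in Control replicate 2 than in Control replicate 3. Myh7, the slow myosin heavy chain, stood at 7.34 and 2.18 log2 CPM in mDrp1HET replicates 1 and 2, 3.56 and 1.31 in Control replicates 2 and 3 and 1.83 in the shared library. Tnnt1, the slow troponin T, stood at 6.81 and 1.76 in mDrp1HET, 3.19 and 0.22 in Control and 0.20 in the shared library. Myh2, which encodes the fast type IIa myosin, stood lower in both mDrp1HET libraries, at 11.07 and 10.35 against 11.91 and 11.50 in Control and 11.74 in the shared library (log2 fold change -0.996, SE 0.28; adjusted p = 0.153 with limma). The myosin genes Myh1 and Myh4 were also lower in both mDrp1HET libraries. Myh1 stood at 11.43 and 10.68 in mDrp1HET against 12.70 and 11.50 in Control, and 10.76 in the shared library. Myh4 stood at 15.31 and 15.62 in mDrp1HET against 16.27 and 16.44 in Control, and 16.44 in the shared library. Of the 9 listed fibre genes, 7 had log2 fold changes below 0 and 2 above, while of all genes 3573 were below and 8195 above. The part of fibre makeup in the member values was not tested.

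**Figure D3:**
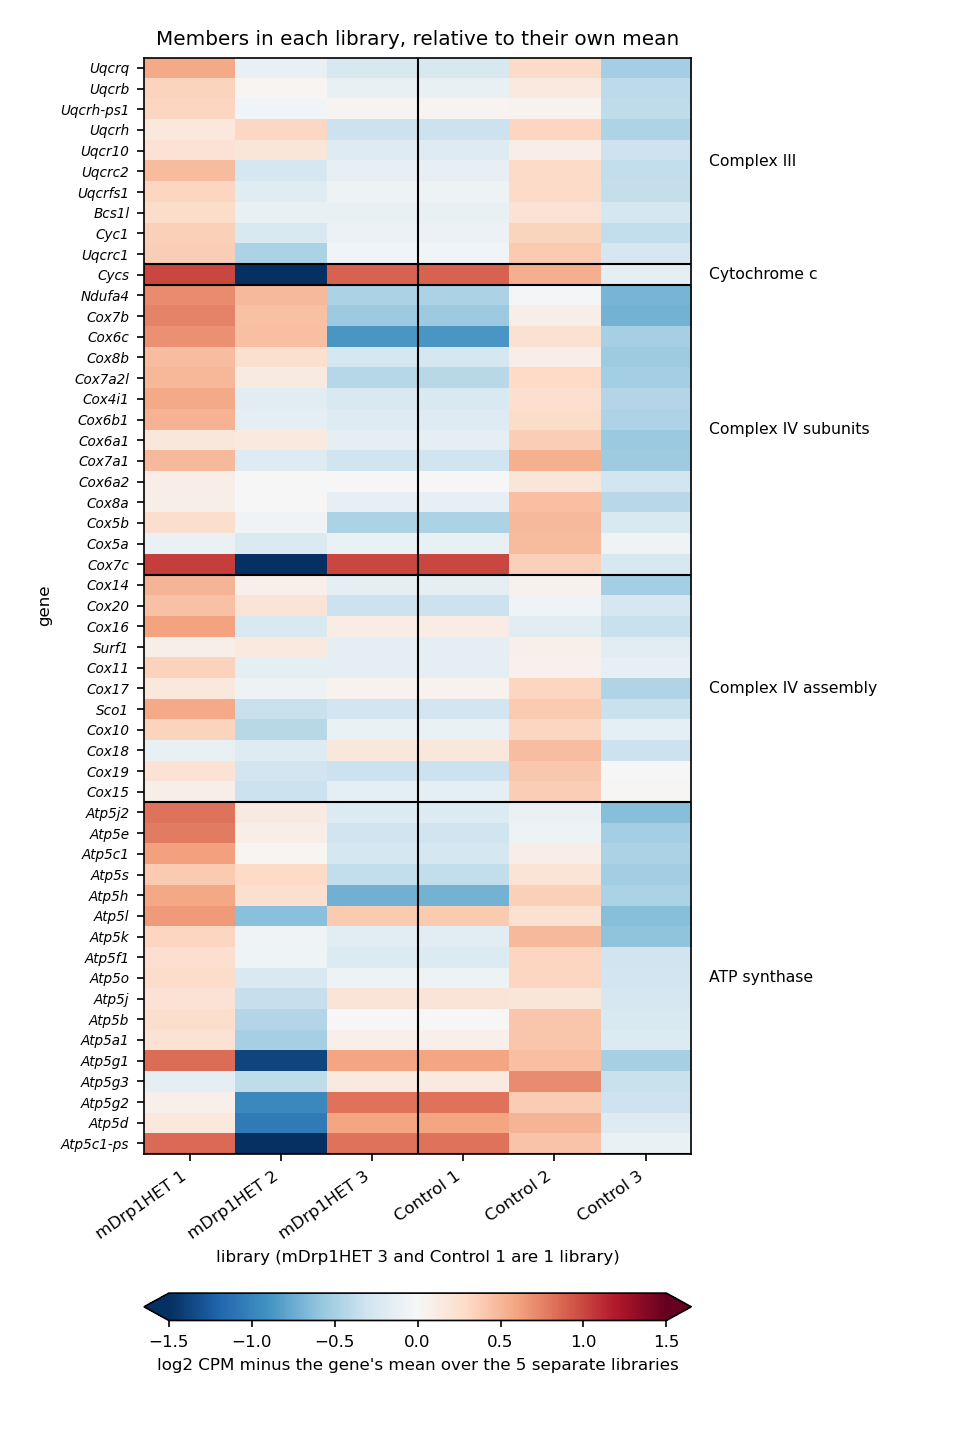
Each of the 53 members (rows, by complex and falling fold change) in the 6 columns of the table, as log2 CPM minus the gene's mean over the 5 separate libraries. mDrp1HET replicate 1 and Control replicate 2 are mostly above the mean, Control replicate 3 mostly below it, and Cycs, Cox7c and Atp5c1-ps are lowest in mDrp1HET replicate 2 (values past 1.5 take the end colour).

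Complex III transcripts did not differ detectably between the groups. The adjusted p of its 10 rows was 0.512 or above in the 4-library comparison. Of its 9 genes, 8 had a fold change above 0, as did 8195 of the 11768 genes of the whole table. Uqcr10, a small subunit, was the member of this complex with the smallest p and the only one with separated groups, at 6.38 and 6.34 log2 CPM in mDrp1HET replicates 1 and 2 against 6.26 and 5.85 in Control replicates 2 and 3, and 5.96 in the shared library. Its log2 fold change was 0.30 (SE 0.22; adjusted p = 0.512 with limma). The small gap between 6.34 and 6.26 is what separates its groups. Uqcrb, a ubiquinone-binding subunit, had 8.82 and 8.51 log2 CPM in mDrp1HET against 8.63 and 8.08 in Control, and 8.37 in the shared library, a log2 fold change of 0.31 (SE 0.24). Uqcrh, the hinge protein that helps cytochrome c dock, had 7.83 and 7.98 in mDrp1HET against 7.99 and 7.21 in Control, and 7.34 in the shared library, a log2 fold change of 0.31 (SE 0.26). In both genes the range of Control reached into that of mDrp1HET.

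The larger subunits of complex III were highest in mDrp1HET replicate 1 and Control replicate 2. Uqcrc1, a core protein, was the 1 gene of the complex below 0, at 8.98 and 8.14 log2 CPM in mDrp1HET replicates 1 and 2 against 9.01 and 8.36 in Control replicates 2 and 3, and 8.57 in the shared library. Its log2 fold change was -0.13 (95% interval -0.78 to 0.52), and it was 0.29 without mDrp1HET replicate 2. Its partner Uqcrc2 had 0.15, the Rieske iron-sulfur protein gene Uqcrfs1 0.10 and the cytochrome c1 gene Cyc1 0.08. Bcs1l, which inserts the Rieske protein, had a log2 fold change of 0.10 (SE 0.28) and Uqcrq, a small subunit, 0.34 (SE 0.30). The pseudogene Uqcrh-ps1 had 0.31 (SE 0.35), at levels of 1.64 to 2.34 log2 CPM, and lay 5.28 to 5.99 log2 units below Uqcrh.

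Cycs, the gene of somatic cytochrome c (chromosome 6, 50562563 to 50566569), had the widest spread of the members. It stood at 7.54 and 4.24 log2 CPM in mDrp1HET replicates 1 and 2, 7.09 and 6.41 in Control replicates 2 and 3 and 7.43 in the shared library. The 2 mDrp1HET libraries thus lay on either side of all others. Recovered reads were 2940 and 196 in mDrp1HET replicates 1 and 2. The log2 fold change was -0.86 (SE 0.73; adjusted p = 0.576 with limma; 95% interval -2.47 to 0.75), and it was 0.79 without mDrp1HET replicate 2 and -2.51 without mDrp1HET replicate 1.

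Cycs was 1 of 3 members that lay more than 1 log2 unit below every other separate library in mDrp1HET replicate 2 (5.66% of members, against 0.85% of all genes). The others were Cox7c, with 2.62 log2 CPM there against 4.55 to 5.83 in the other libraries, and Atp5c1-ps, with 0.54 against 2.42 to 3.38. In all, 14 members were lowest of the 5 separate libraries in mDrp1HET replicate 2 (26.4%, against 20.1% of all genes). Atp5g1, Atp5d and Atp5g2 were lowest there, by 0.88, 0.86 and 0.66 log2 units. Genes that share sequence with other loci were more often low in this library: the share of genes more than 1 log2 unit below was 0.204% where no stretch was shared, 0.313% up to 10%, 3.43% from 10 to 50% and 12% above 50%. Cycs and Cox7c belong to the bin from 10 to 50%, and Atp5c1-ps, at 7.2%, to that up to 10%. The 2 members above 50%, Atp5g2 and Atp5l, were not more than 1 log2 unit below. Atp5d shared no stretch and was lowest in this library all the same. This library was also the shallowest, with 10394761 reads, and the part of depth or read assignment in these values was not tested.

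Parent and copy were counted in different proportions in different libraries. Cox7c minus Gm10012 was 1.81 and -1.59 log2 units in mDrp1HET replicates 1 and 2, 2.08 and 1.56 in Control replicates 2 and 3 and 5.75 in the shared library. Uqcrb minus Gm16089 was 0.87 and -0.14 in mDrp1HET, 1.11 and 1.10 in Control and 4.57 in the shared library. Atp5j2 minus Gm6581 was 1.94 and 0.94 in mDrp1HET, 1.87 and 2.09 in Control and 4.15 in the shared library. For these genes and for Atp5g2 minus Gm10175, at -1.76 and -2.86 in mDrp1HET, -1.38 and -1.61 in Control and -0.66 in the shared library, the difference was lowest in mDrp1HET replicate 2 and highest in the shared library. The other 2 of the 6 listed pairs went the other way between parent and copy. Uqcrh minus Uqcrh-ps1 was 5.49 and 5.99 in mDrp1HET, 5.92 and 5.56 in Control and 5.28 in the shared library, so mDrp1HET replicate 2 was the highest and the shared library the lowest. The pseudogene member Atp5c1-ps minus its parent Atp5c1 was -6.36 and -8.62 in mDrp1HET, -6.26 and -6.23 in Control and -5.52 in the shared library. Adding parent and copy narrowed the range over the 5 libraries for Cox7c, to 1.56 log2 units against 3.20 for Cox7c alone, and for Atp5g2, to 0.52 against 1.79. It widened the range for Uqcrb, to 1.16 against 0.73, and left those of Atp5j2 (1.48 against 1.45) and Uqcrh (0.77 against 0.78) about as they were. In the 4-library comparison, Gm10012, Gm16089, Gm6581 and Gm10175 had log2 fold changes of 1.09, 1.05, 1.38 and 0.34, none past the threshold. The summed level differed between group means by 0.20 for Cox7c (-0.62 alone) and 0.18 for Atp5g2 (-0.48 alone). For Uqcrb, Atp5j2 and Uqcrh it differed by 0.61, 0.98 and 0.31 (0.31, 0.84 and 0.31 alone). These genes are reported as uncertain, since how the authors assigned reads that match several loci is not given in the sources used here.

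**Figure D4:**
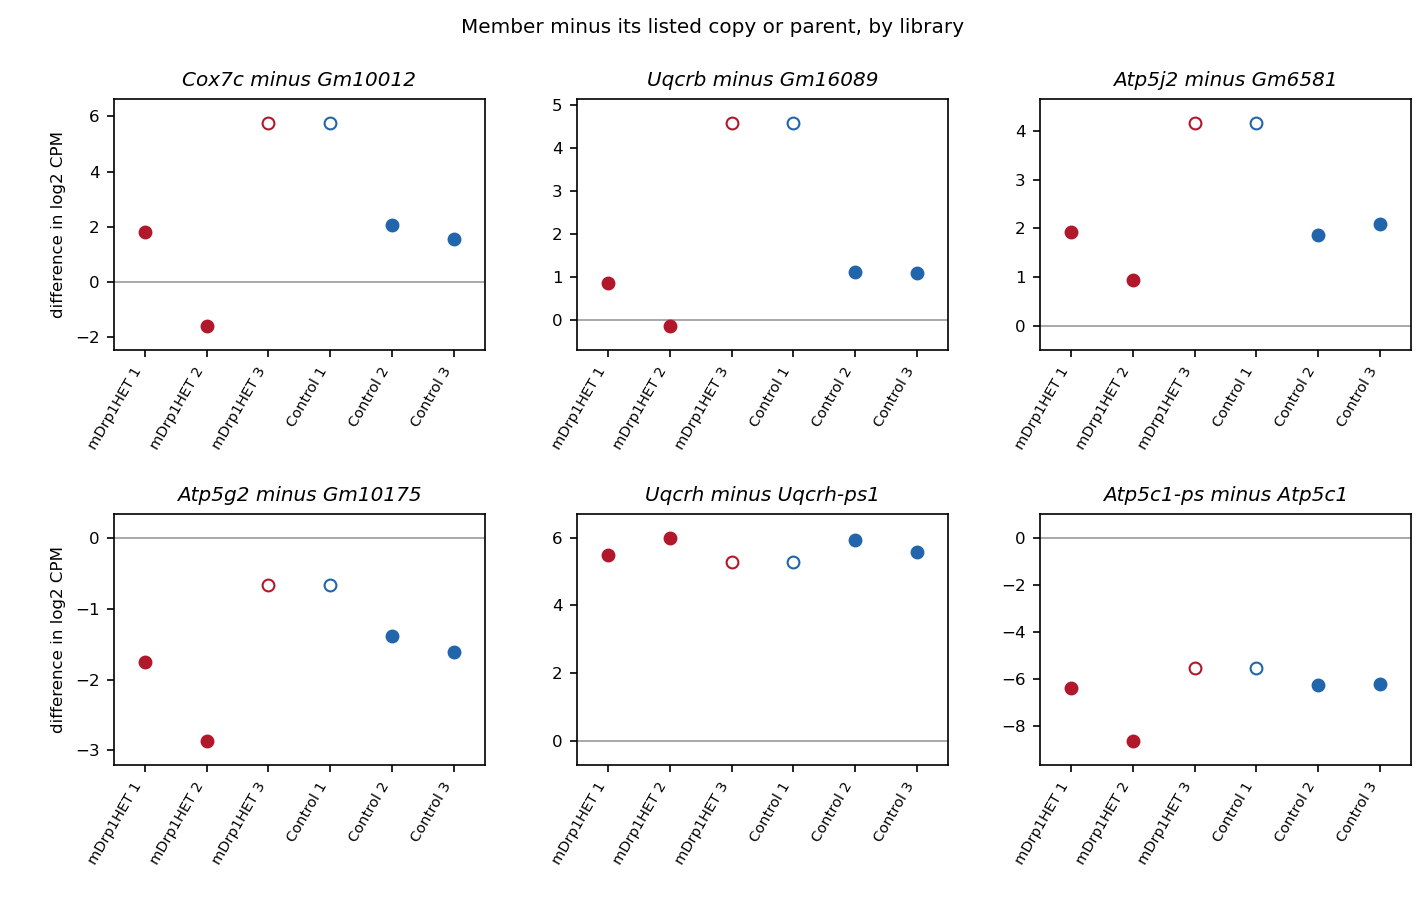
Difference in log2 CPM between a member and its listed copy or parent in each column for the 6 listed pairs, with mDrp1HET in red and Control in blue and the shared library as open circles. The shared library is the highest and mDrp1HET replicate 2 the lowest in 5 panels (5.75 and -1.59 for Cox7c), with the pseudogene first in that of Atp5c1-ps, and Uqcrh minus Uqcrh-ps1 has the opposite order (5.28 and 5.99).

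Complex IV held the members with the smallest p. Ndufa4, once placed in complex I and now known as a subunit of complex IV (chromosome 6, 11900372 to 11907450), stood at 8.07 and 7.85 log2 CPM in mDrp1HET replicates 1 and 2 against 7.33 and 6.66 in Control replicates 2 and 3, and 6.88 in the shared library. The groups did not overlap, and the shared library fell between the Control libraries. The log2 fold change was 0.96 (SE 0.25; adjusted p = 0.125 with limma), so it did not pass over all genes. Cox7b, a small subunit on the X chromosome (106015700 to 106022450), had 7.94 and 7.64 log2 CPM in mDrp1HET against 7.28 and 6.49 in Control, and 6.65 in the shared library. Its log2 fold change was 0.90 (SE 0.27; adjusted p = 0.169 with limma). Ndufa4 shared 0% of its stretches with other loci and Cox7b 0.63%.

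Cox6c and Cox8b also had separated groups. Cox6c, a small subunit, stood at 8.82 and 8.58 log2 CPM in mDrp1HET replicates 1 and 2 against 8.36 and 7.64 in Control replicates 2 and 3, a log2 fold change of 0.70 (SE 0.25; with limma, adjusted p = 0.228). The shared library was lower than either group, at 7.26. Cox8b, the muscle form of subunit VIII, stood at 7.62 and 7.39 in mDrp1HET against 7.25 and 6.63 in Control, and 6.89 in the shared library, a log2 fold change of 0.57 (SE 0.24; with limma, adjusted p = 0.277). In the labelled comparison, with the shared library on both sides, the log2 fold changes of Ndufa4, Cox7b, Cox6c and Cox8b were 0.64, 0.60, 0.47 and 0.38, with adjusted p of 0.753 or above.

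These calls depended on single libraries. With Control replicate 2 left out, Ndufa4 and Cox7b passed the threshold (2 of 53 members, 3.77%, against 1.02% of all genes called higher in that fit, and 0 lower against 0.229%), each at a log2 fold change of 1.298. With mDrp1HET replicate 2 left out, Atp5j2, Ndufa4, Atp5e and Cox7b passed (4 members, 7.55%, against 1.53%), at 1.18, 1.07, 1.08 and 1.05, and 0 were called lower (against 1.23%). With mDrp1HET replicate 1 left out, 0 members were called higher (against 1.24%) and 5 members were called lower (9.43%, against 1.3%): Cycs at -2.51, Cox7c at -2.22, Atp5c1-ps at -2.15, Atp5g1 at -1.36 and Atp5d at -1.22. With Control replicate 3 left out, 0 members passed, against 0.263% of all genes called higher and 0.391% lower. Each of these fits has 1 library on 1 side and takes that library to vary like those of the other group.

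**Figure D5:**
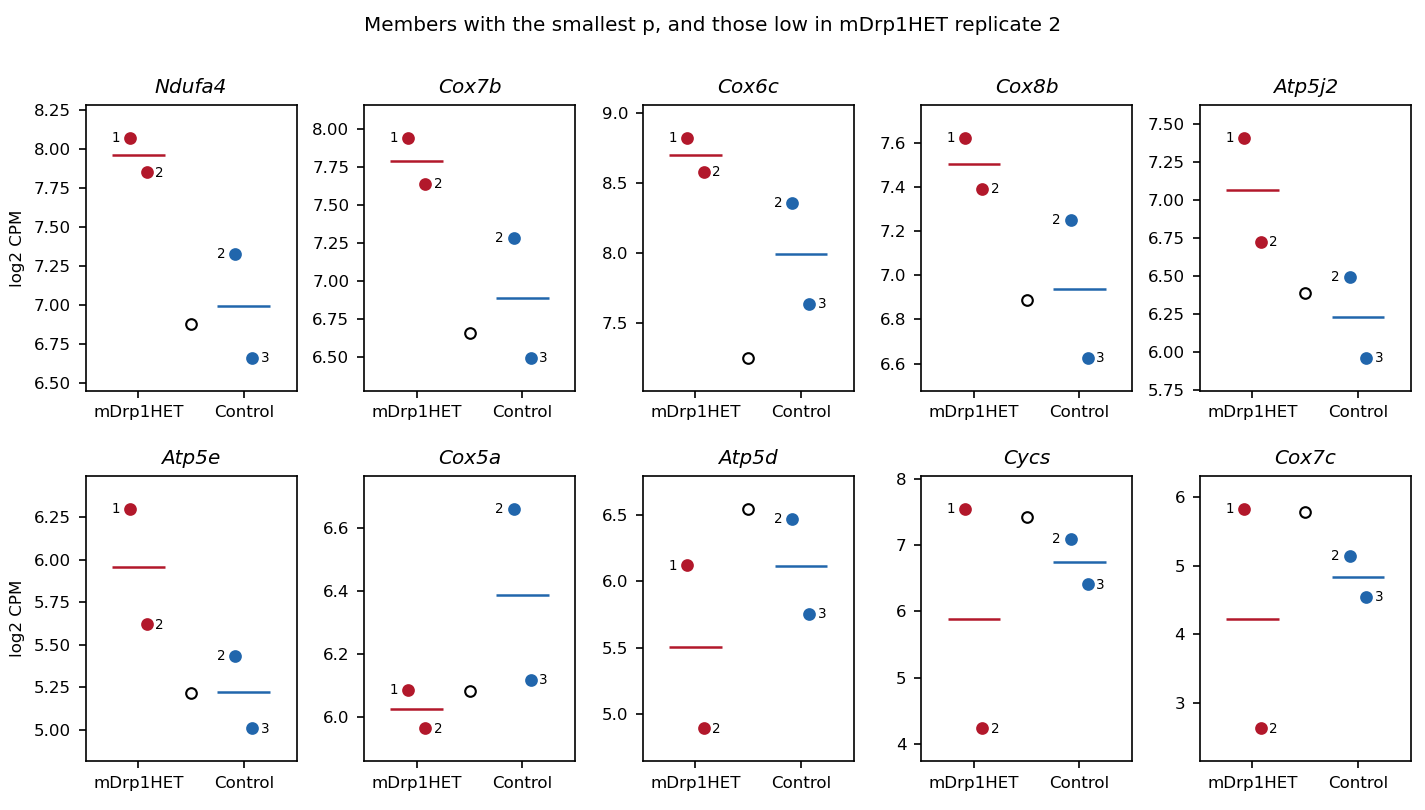
Log2 CPM of 10 members in the mDrp1HET libraries (red, replicates 1 and 2, with their mean as a line), the Control libraries (blue, replicates 2 and 3) and the shared library (open circle). Ndufa4, Cox7b, Cox6c, Cox8b, Atp5j2 and Atp5e are higher in both mDrp1HET libraries, Cox5a is lower in both, and Atp5d, Cycs and Cox7c are low in mDrp1HET replicate 2.

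Other subunits of complex IV had smaller or negative fold changes. Cox5a, a subunit next to the catalytic core, was the 1 member with both mDrp1HET libraries below both Control libraries, at 6.08 and 5.96 log2 CPM in mDrp1HET against 6.66 and 6.12 in Control. The shared library stood at 6.08, and the nearest libraries of the groups, at 6.08 and 6.12, lay close together. The log2 fold change was -0.36 (SE 0.24; adjusted p = 0.451 with limma). Cox7c, a small subunit, had a log2 fold change of -0.62 (SE 0.72; with limma, adjusted p = 0.693), which was 0.98 without mDrp1HET replicate 2. With its copy Gm10012 added, the log2 difference between group means was 0.20, so its direction is uncertain. Cox5b, a zinc-binding subunit, stood at 6.66 and 6.34 in mDrp1HET against 6.88 and 6.16 in Control, with 5.92 in the shared library, a log2 fold change of -0.02 (SE 0.26). Cox4i1, which takes part in the regulation of the enzyme by ATP, had 0.30 (SE 0.29) and Cox6b1, which faces the intermembrane space, 0.28 (SE 0.29). Cox7a2l, whose product links complexes III and IV in supercomplexes, had 0.43 (SE 0.28).

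The muscle forms far exceeded their ubiquitous counterparts, in every library. Per kilobase, Cox6a2 was 41.9-fold above Cox6a1 and Cox8b 13.0-fold above Cox8a on average. Cox6a2 minus Cox6a1 was 5.57 and 5.51 log2 units in mDrp1HET replicates 1 and 2 against 5.45 and 5.90 in Control replicates 2 and 3, and 5.78 in the shared library. The groups overlapped, and the difference between their means was -0.14 (exact two-sided permutation p = 1, the smallest possible with 2 libraries each being 0.333). Cox8b minus Cox8a was 3.47 and 3.32 in mDrp1HET against 2.73 and 2.97 in Control, and 2.93 in the shared library. Both mDrp1HET libraries were higher, by 0.54 between means (exact permutation p = 0.333, the smallest possible, and 0.667 adjusted over the 2 pairs). As labelled, with 3 columns against 3, the differences between means were -0.09 (exact permutation p = 0.7) and 0.36 (p = 0.3). The smallest p would be 0.1 if every column were a separate library. The shared library stands on both sides here, so these are not p-values of a test over separate libraries. The COX7A pair could not be compared, since Cox7a2 was not analysed here.

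The other genes of these pairs did not differ detectably. Cox6a2, on chromosome 7 (128205435 to 128206366), stood at 9.18 and 9.08 log2 CPM in mDrp1HET against 9.26 and 8.78 in Control, a log2 fold change of 0.11 (SE 0.22). Cox6a1 stood at 3.61 and 3.58 in mDrp1HET against 3.81 and 2.88 in Control, with 0.25 (SE 0.33). In both, Control replicate 2 was the highest and Control replicate 3 the lowest of the 4 libraries. Cox7a1 stood at 8.95 and 8.27 in mDrp1HET against 8.996 and 7.93 in Control, with 0.15 (SE 0.33). Cox8a stood at 4.15 and 4.07 in mDrp1HET against 4.52 and 3.66 in Control, with 0.03 (SE 0.30). The groups of all 4 genes overlapped. In the shared library, Cox6a2, Cox6a1, Cox7a1 and Cox8a stood at 9.07, 3.30, 8.16 and 3.95. The signs of Cox6a2, Cox7a1 and Cox8a turned with median centring, at -0.06, -0.02 and -0.14.

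The 11 assembly factors of complex IV spread around 0, with a median log2 fold change of 0.10 and a lowest adjusted p of 0.331. Cox20, which stabilizes the newly made core subunit COX2, stood at 5.402 and 5.16 log2 CPM in mDrp1HET against 4.90 and 4.72 in Control, and 4.64 in the shared library. Its log2 fold change was 0.47 (SE 0.23; adjusted p = 0.331 with limma), and 91.1% of its exon bases lie opposite Hnrnpu, so without stated strand use in counting the genes cannot be told apart. Cox14, an early factor that binds the core subunit COX1, had 4.67 and 4.24 in mDrp1HET against 4.23 and 3.65 in Control, and 4.02 in the shared library, with 0.52 (SE 0.28). Both genes had separated groups, with 4.24 and 4.23 as the nearest values for Cox14. Cox16 had 5.82 and 4.99 in mDrp1HET against 5.04 and 4.88 in Control, and 5.33 in the shared library, with 0.44 (SE 0.28), and 56.8% of its exon bases are shared with the same-strand gene Gm20498.

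The enzymes that make the heme of complex IV had fold changes below 0. Cox15, the heme A synthase, stood at 4.25 and 3.83 log2 CPM in mDrp1HET against 4.52 and 4.17 in Control, and 4.01 in the shared library, with a log2 fold change of -0.30 (SE 0.27). Cox10, which makes its substrate heme O, had -0.14 (SE 0.30). The copper-delivery factors stood on either side of 0: Cox19 had 3.34 and 2.83 in mDrp1HET against 3.52 and 3.11 in Control, with -0.23 (SE 0.31), while Cox17, Cox11 and Sco1 had 0.10, 0.13 and 0.09. Cox18 had 1.52 and 1.43 in mDrp1HET against 2.09 and 1.31 in Control, with -0.23 (SE 0.39). In the shared library, Cox19 and Cox18 stood at 2.81 and 1.81. Surf1, a factor for early assembly of the core, had 4.38 and 4.44 in mDrp1HET against 4.37 and 4.14 in Control, with 0.16 (SE 0.24). None of these differences exceeded the spread between libraries by limma.

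In the ATP synthase, the members with the smallest p had fold changes above 0, and in order of p the first below 0 was Atp5d. Atp5j2, the membrane subunit f, stood at 7.41 and 6.73 log2 CPM in mDrp1HET replicates 1 and 2 against 6.49 and 5.96 in Control replicates 2 and 3, and 6.39 in the shared library. The log2 fold change was 0.84 (SE 0.27; adjusted p = 0.197 with limma). Atp5e, the ε subunit of the central stalk, stood at 6.30 and 5.62 in mDrp1HET against 5.44 and 5.01 in Control, and 5.21 in the shared library, with 0.74 (SE 0.27; adjusted p = 0.233 with limma). In both genes the mDrp1HET libraries lay above the Control libraries, and mDrp1HET replicate 1 stood well above the rest. Atp5c1, the rotating γ subunit, had 9.74 and 9.16 in mDrp1HET against 9.22 and 8.65 in Control, and 8.87 in the shared library, with 0.51 (SE 0.26) and overlapping groups.

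On the other side, Atp5d, the δ subunit of the same central stalk, stood at 6.12 and 4.89 log2 CPM in mDrp1HET against 6.47 and 5.76 in Control, and 6.54 in the shared library. Its log2 fold change was -0.61 (SE 0.36; adjusted p = 0.414 with limma), and 0.01 without mDrp1HET replicate 2. The catalytic head did not differ detectably: Atp5a1 had a log2 fold change of -0.25 (SE 0.29) and Atp5b, at 10.69 and 9.98 in mDrp1HET against 10.84 and 10.20 in Control, had -0.18 (SE 0.29). Subunits of the outer stalk ran from -0.03 to 0.47, with 0.08 for Atp5f1 (subunit b), 0.00 for Atp5o (the oligomycin sensitivity protein), -0.03 for Atp5j (factor 6) and 0.47 for Atp5h (subunit d). Subunits e and g, encoded by Atp5k and Atp5l, had 0.19 and 0.21, and Atp5s 0.50 (SE 0.32). The γ, δ and ε subunits of 1 stalk thus had fold changes from -0.61 to 0.74, none past the threshold.

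The mature c subunit of the rotor ring is encoded by 3 genes, Atp5g1, Atp5g2 and Atp5g3. Atp5g3 stood at 6.004 and 5.76 log2 CPM in mDrp1HET against 6.85 and 5.80 in Control, and 6.28 in the shared library, a log2 fold change of -0.44 (SE 0.30). Atp5g2 stood at 3.65 and 2.60 in mDrp1HET against 3.95 and 3.26 in Control, and 4.39 in the shared library, with -0.48 (SE 0.38). Atp5g1 stood at 5.90 and 3.69 in mDrp1HET against 5.52 and 4.57 in Control, and 5.66 in the shared library, with -0.25 (SE 0.55). All 3 fold changes were below 0, and the groups overlapped in all 3 genes. Atp5g2 shared 87.4% of its stretches with other loci. With its copy Gm10175 added, the log2 difference between group means was 0.18, so its direction is uncertain. Without that copy, the 3 genes summed to 137 and 73.3 CPM in mDrp1HET replicates 1 and 2. The sum was 177 and 89.2 CPM in Control replicates 2 and 3, and 149 CPM in the shared library. The share of Atp5g1 in that sum was 43.8% and 17.6% in mDrp1HET against 26.03% and 26.6% in Control, so the mDrp1HET libraries stood on either side of Control.

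Subunits named otherwise lie outside the symbol rule. Usmg5, which helps join ATP synthase dimers, stood at 7.13 and 3.42 log2 CPM in mDrp1HET replicates 1 and 2 against 6.20 and 5.72 in Control, and 6.75 in the shared library, and so was low in the same library as Cycs and Cox7c. The small proteolipid gene 2010107E04Rik had 6.41 and 6.24 in mDrp1HET against 5.73 and 4.97 in Control, and 5.33 in the shared library, a log2 fold change of 0.98 (SE 0.27; with limma, adjusted p = 0.143). Atpif1, the inhibitor of ATP hydrolysis by the enzyme, had 0.34 (SE 0.26).

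No neighbouring gene of the pathway passed the threshold either. Of 61 other assembly genes and complex I subunits, 0 passed the threshold in either comparison. In the 4-library comparison, 12 of the 61 had an unadjusted p under 0.05, all higher in mDrp1HET. That share was above the 13.3% of all genes. The 36 complex I subunits had a median log2 fold change of 0.17, with 24 above 0 and 12 below. Of all genes, 8195 were above 0 and 3573 below, with a median of 0.20. Ndufa2, a small peripheral-arm subunit, stood at 5.04 and 5.08 log2 CPM in mDrp1HET against 4.28 and 4.23 in Control, with 0.81 (SE 0.23; adjusted p = 0.158 with limma), and Ndufc2, in the membrane arm, had 0.89 (SE 0.26). The greatest changes went the other way, with -1.33 (SE 0.68) for Ndufa8, -1.18 (SE 0.60) for Ndufab1 and -1.17 (SE 0.61) for Ndufs5, genes singled out after their values were seen. Ndufa8 stood at 3.15 and 0.33 log2 CPM in mDrp1HET against 3.39 and 2.74 in Control, and in all of these genes mDrp1HET replicate 2 was far below the other libraries. Among 15 measured complex IV assembly genes outside the rule, the copper factor gene Coa6 stood at 3.40 and 3.12 in mDrp1HET against 2.42 and 2.03 in Control, with 1.03 (SE 0.31; adjusted p = 0.173 with limma), and Slirp, which stabilizes mitochondrial messenger RNA, had 0.98 (SE 0.31). Of these 15, 6 were below 0, the lowest being Coa4 at -0.90 (SE 0.51). In complex III assembly, with 5 genes, Uqcc2, which helps make cytochrome b, had 0.72 (SE 0.26) and Ttc19, which acts in Rieske protein turnover, 0.24 (SE 0.23). In ATP synthase assembly, with 5 genes, Fmc1, a partner of a head assembly factor, had 0.59 (SE 0.35) and Tmem70, which helps build the c ring, 0.41 (SE 0.28).

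Summed transcripts of other cell types were higher in both mDrp1HET libraries for 2 lists, as were 38.6% of all genes taken singly. Summed over 10 of 10 fibro-adipogenic progenitor genes, the level was 2540 and 2556 CPM in mDrp1HET against 1962 and 1358 CPM in Control, and 1471 CPM in the shared library, and over 9 of 10 macrophage genes it was 335 and 305 CPM in mDrp1HET against 245 and 160 CPM in Control, and 210 CPM in the shared library. The 9 of 9 fibre genes summed to 237387 and 220989 CPM in mDrp1HET against 255990 and 292688 CPM in Control, and 268829 CPM in the shared library. The 5 measured of 8 genes listed as slow-fibre summed to 2663 and 1375 CPM in mDrp1HET against 3955 and 2955 CPM in Control, and 3486 CPM in the shared library, but most of this was the IIa myosin Myh2. Without Myh2, the 4 measured slow-fibre genes summed to 507 and 71.8 CPM in mDrp1HET against 105 and 52.1 CPM in Control, and 54.9 CPM in the shared library, with overlapping groups. Summed endothelial, adipocyte, smooth muscle and erythroid genes overlapped between the groups. Gene by gene, all 7 measured adipocyte genes (median 0.76) and all 3 measured erythroid genes had log2 fold changes above 0. Of the endothelial genes 3 were above 0 and 5 below, and of the smooth muscle genes 3 above and 4 below. In whole muscle, fewer cells of a type and less RNA per cell cannot be told apart. The part of cell makeup in the member values was not tested.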

How the data were processed

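Total RNA was depleted of ribosomal RNA and made into stranded libraries, per the labels' protocols. The authors deposited 1 table with log2 CPM per gene and column, and 1 p-value per gene, per the file headers. FastQC, the build GRCm38 and DESeq2 1.30.0 are named in the submitters' processing notes. The aligner, the counter and the treatment of reads that match several loci are not given in the sources used here. In the authors' deposited table, 0 members had a p-value under 0.05 (10 genes did), and the lowest member p-value was 0.176 for Atp5j2. There were 0 further columns with values per sample.

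Equal steps between the values gave back whole reads for 100% of values (tolerance 0.01 reads): 15782298, 10394761 and 32372360 in mDrp1HET replicates 1 to 3, and 64728022, 28664508 and 25019293 in Control replicates 1 to 3. The lowest count of any listed gene was 11 to 66 reads. Coordinates and lengths (the median over basic transcripts) come from GENCODE M21 and RefSeq tables of GRCm38.

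Differences in the deposited log2 values were tested two-sided with limma (version 3.58.1 under R 4.3.3, intensity trend on), with Benjamini-Hochberg adjustment over 11768 genes and a threshold of 0.05. The comparison without the shared library has 2 libraries per group. Isoform differences were tested by exact permutation over libraries, and in the labelled comparison over columns, 2 of which hold the shared library. Alternatives were median centring, quantile normalization, a minimum mean log2 CPM of 3, log2(CPM + 1), limma without the trend, limma voom on recovered reads, removal of GC and length trends (loess, span 0.3) and leaving out each library. A restriction to members under 10% shared sequence was chosen after seeing the data. The method was also run on simulated data, but the share of changes it finds with 2 libraries per group is not reported here.

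The members, gene lists and comparisons were chosen with earlier results of these data known. Genes named by rule had the smallest p (up to 3 per direction) in complex III, complex IV subunits, its assembly factors and ATP synthase. Also named by rule were the isoform genes, Cycs and the members with the highest and lowest mean level. Up to 2 genes per list of other genes were added by smallest p. Other members named, the copies and the genes outside the symbol rule were chosen after their values were seen. The stretches of 50 bases were taken from a gene's GENCODE basic transcripts and sought in all GENCODE transcripts of other loci. A copy was listed from 3% upward.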

Additional observations from a re-analysis of the deposited data

How the results depend on the processing

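The count of members past the threshold stayed at 0 in the labelled comparison under every alternative run, and at 0 in the 4-library comparison under all that kept the 4 libraries. Leaving out 1 library gave 0 to 5 members in the 4-library comparison, and 0 to 5 of the 61 other pathway genes. The complex medians turned below 0 with median centring (-0.020, -0.017 and -0.12 for complex III, complex IV and the ATP synthase) and voom (-0.050, -0.043 and -0.15), and that of the ATP synthase also with quantile normalization (-0.023) and the length trend removed (-0.085), all within 1 SD between libraries. Their ranges over leave-outs were -0.14 to 0.47 for complex III, -0.13 to 0.49 for complex IV and -0.28 to 0.35 for the ATP synthase. With members under 10% shared sequence, the medians were 0.13, 0.14 and 0.08. Of 231 values of the 29 named members under other settings, 219 kept direction and call and 12 turned sign. Cox6a2, Cox7a1 and Cox8a turned with median centring (-0.059, -0.017 and -0.14), with voom (-0.083, -0.043 and -0.19) and with the length trend removed (-0.050, -0.061 and -0.16), and Cox8a with quantile normalization (-0.14). Cox5b and Uqcrc1 turned with the GC trend removed (0.038 and 0.021). The cause was not tested. Of 116 values with a library left out, 20 turned sign, in 15 genes. The lowest and highest were -0.61 and 0.11 for Atp5a1, -1.22 and 0.0068 for Atp5d, -1.01 and 0.043 for Atp5g2, -0.96 and 0.080 for Atp5g3, -0.62 and 0.16 for Cox18, -0.48 and 0.026 for Cox19, and -0.38 and 0.34 for Cox5b. They were -0.22 and 0.71 for Cox6a1, -0.13 and 0.35 for Cox6a2, -0.39 and 0.69 for Cox7a1, -2.22 and 0.98 for Cox7c, -0.40 and 0.46 for Cox8a, -2.51 and 0.79 for Cycs, -0.55 and 0.29 for Uqcrc1, and -0.084 and 0.70 for Uqcrh. Cox6a2 minus Cox6a1 ranged from -0.37 to 0.084 in the 4-library comparison and from -0.22 to 0.0026 as labelled, and turned without Control replicate 3. The planned edgeR test was not run. No paired analysis was possible because the labels give the groups no shared replicate numbers. With 10394761 reads, mDrp1HET replicate 2 limits the low members: Cox18 had 28 reads there and Atp5c1-ps 15.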
